A study of Mus musculus with 2 samples.

Results

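The genes described here are 33 genes of glycolysis and glycogen metabolism in newborn mouse skeletal muscle, 23 of them from glucose uptake to lactate and 10 of them glycogen genes. They were chosen by symbol from the pathway, including the muscle form and the more general forms of the enzymes that have several genes. All 33 had a row among the 43346 genes measured. RNA came from skeletal muscle of B6NCrl mice at postnatal day 0, with no treatment or altered gene named in the labels. The 2 SmartSeq libraries, in which full-length cDNA is amplified, were made from 13 pg of total RNA each, about the content of a single cell, taken from a piece of tissue and not from an isolated cell. They are labelled biological replicates 1 and 2 and form 1 group, each from 1 pup, and both carry the same donor entry. Differences between the libraries can come from the animal, the tissue piece or the amplification, and these cannot be told apart; whether the pups were related or the same is not stated in the labels. Sex was not collected.

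Glycolysis splits glucose into pyruvate, which lactate dehydrogenase turns into lactate when the fibre works faster than oxygen allows. Muscle stores glucose as glycogen, and glycogen phosphorylase, switched on by phosphorylase kinase, releases it for the same pathway. Several of these steps are served by paralogous genes, of which 1 form predominates in mature muscle and others serve embryonic tissue, brain or liver.

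Replicate 1 held 32103374 expected counts and replicate 2 held 38977618, of which 5.20% and 2.50% fell on added spike-in RNAs. The 6 skeletal fibre markers (Acta1, Ckm, Ttn, Myh8, Myh3 and Tnnt3) were detected in both libraries and summed to 91969 and 93039.6 TPM, as the tissue label implies. TPM is a gene's length-adjusted share of all transcripts, scaled to a fixed total. Markers of other cells were present at lower sums in replicates 1 and 2, with fibroblast at 6287 and 3921 TPM, erythroid at 3292 and 3629, adipocyte at 2812 and 1080.3, macrophage at 633 and 270.5, endothelial at 522 and 255, and Schwann and nerve at 51.2 and 25.5. All 6 fibroblast markers were detected in both libraries, as were 5 of 6 adipocyte, 5 of 6 endothelial, 4 of 6 erythroid, 4 of 6 macrophage and 2 of 6 Schwann and nerve markers. The macrophage marker Adgre1 was at 0 counts in both libraries. In bulk RNA, fewer cells of a type and less RNA per cell cannot be told apart.

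Pyruvate kinase of muscle is the one enzyme of the pathway whose muscle form is chosen by splicing within 1 gene, Pkm, so its exon pair is shown first. Pkm lies on GRCm38 chromosome 9 from 59656368 to 59679375 on the plus strand. The M1 exon, used in adult muscle, spans 59675029 to 59675195, and the M2 exon, used in embryonic and proliferating cells, spans 59675568 to 59675734. Each is exon 9 of 11 in its transcript and coding. They are given from the GENCODE M21 transcripts, with capitals at the positions where they differ.
M1 exon: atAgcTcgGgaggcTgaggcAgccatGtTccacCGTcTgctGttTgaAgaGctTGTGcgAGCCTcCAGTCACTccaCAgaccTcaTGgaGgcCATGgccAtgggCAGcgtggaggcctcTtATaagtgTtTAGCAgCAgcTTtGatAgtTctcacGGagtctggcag
M2 exon: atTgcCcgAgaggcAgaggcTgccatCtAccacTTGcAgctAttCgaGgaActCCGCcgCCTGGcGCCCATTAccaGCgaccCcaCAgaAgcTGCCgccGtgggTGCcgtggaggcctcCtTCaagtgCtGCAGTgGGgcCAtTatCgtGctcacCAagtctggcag
Both exons are 167 bases long, lie 372 bases apart and have 103 of 167 positions in common (61.7%), leaving 64 that can tell reads apart.

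Glycolytic RNA was abundant in both libraries. The 33 genes together held 3.42% of all gene TPM in replicate 1 and 4.07% in replicate 2 (3.74% ± 0.457, SD, n = 2). Glycolysis held 3.17% and 3.83%, and glycogen genes 0.252% and 0.234%. The pool was uneven: the single highest gene, the aldolase gene Aldoa, held 27.0% and 25.4% of it, and the 4 highest genes held 68.1% and 63.6%. Of the 33 genes, 9 exceeded 1000 TPM in both libraries and 8 were among the 100 highest genes of each. For scale, Tpi1 at 1072 TPM ranked 104 among all genes in replicate 1, and Pygm at 1221 TPM ranked 99 in replicate 2.

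Detection was taken to need 1 TPM or more and no fewer than 5 expected counts. By this rule 20 of the 33 genes were detected in both libraries, against 18.2% of protein-coding genes and 4356 of all 43346 genes. Another 6 genes (Pfkp, Aldoc, Pgam1, Pygb, Phka1 and Gbe1) were detected in replicate 2 only, where 10.7% of protein-coding genes were, and 0 in replicate 1 only, where 8.22% of protein-coding genes were. The remaining 7 were detected in neither library, and 4 of them (Slc2a1, Pygl, Pfkfb1 and Pfkfb3) had 0 counts in both. Of the 6 detected in replicate 2 only, Pfkp, Aldoc, Pgam1 and Pygb are forms best known from other tissues or from early development. Phka1 and Gbe1 encode glycogen enzymes that muscle uses. The levels of these 6 in replicate 2 ran from 3.45 TPM (Gbe1) to 64.2 TPM (Pgam1), and loss of their molecules from replicate 1 was not tested.

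**Figure D1:**
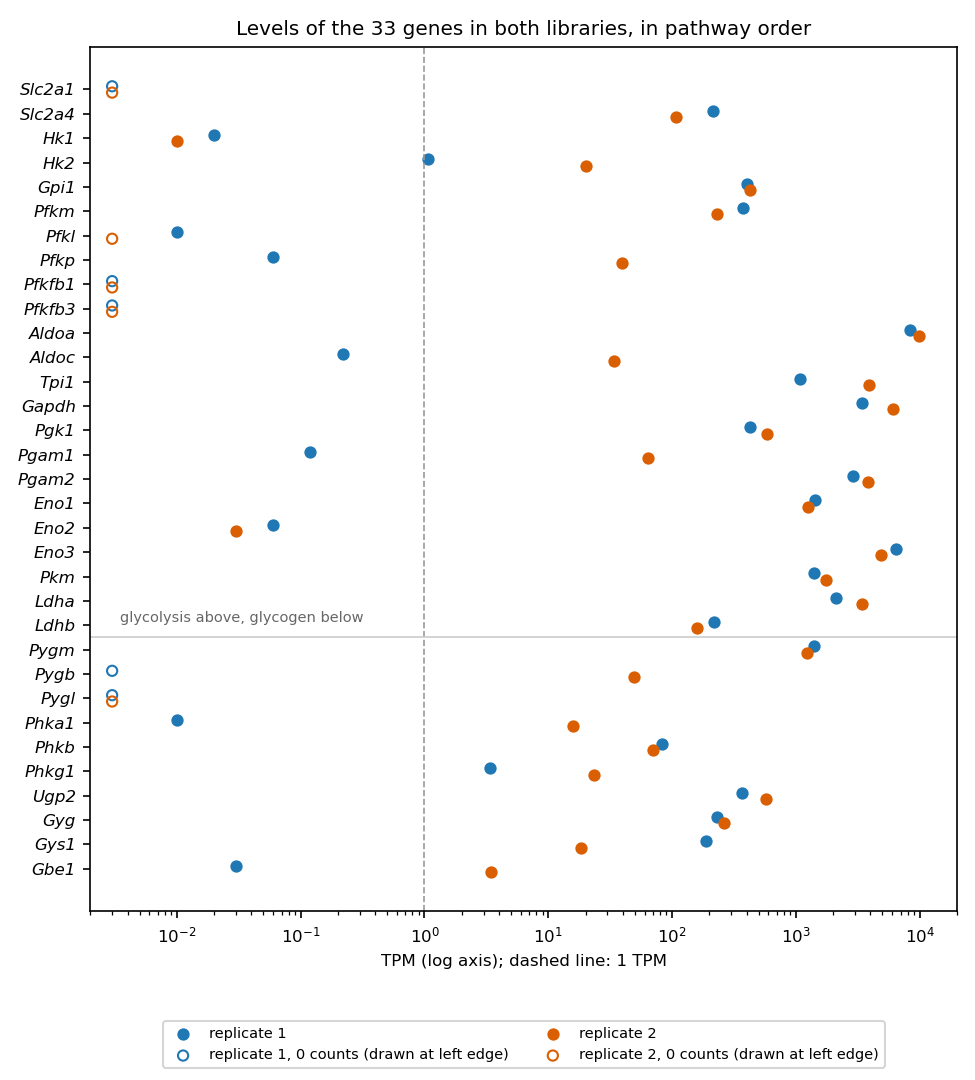
TPM of the 33 genes in pathway order on a log axis, with 1 point per gene and library and open circles at the left edge for 0 counts. Most muscle forms lie above 100 TPM in both libraries, while Pfkp, Aldoc, Pgam1, Pygb, Phka1 and Gbe1 lie above 1 TPM in replicate 2 only.

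Glucose enters the fibre through transporters of the GLUT family. Slc2a4, which encodes the insulin-responsive glucose transporter GLUT4 of muscle and fat (chromosome 11, 69942539 to 69948188, minus strand), was at 212 TPM in replicate 1 and 108 in replicate 2 (160.0 ± 73.9, SD, n = 2). In replicate 1 the 735-base Slc2a4-205, annotated for nonsense-mediated decay, took 16.3% of Slc2a4 TPM with 5.08% of its counts. That transcript had 0 counts in replicate 2. Protein-coding transcripts gave 175 TPM in replicate 1 and 108 in replicate 2. Slc2a1, which encodes the widely expressed transporter GLUT1, had 0 counts in both, which allows up to 0.102 and 0.0797 TPM. At this floor of 3 counts per library, Slc2a4 TPM was at least 2081-fold and 1352-fold above that of Slc2a1. The floor covers counting error only and not loss of molecules, so it does not bound this ratio for RNA in the tissue. Slc2a3, the neuronal and high-affinity transporter GLUT3, had 2 counts in replicate 1 and 1586 in replicate 2 (0.0800 and 69.0 TPM). With Slc2a3 included, the share of Slc2a4 was 99.96% in replicate 1 and 60.9% in replicate 2. Adipocyte markers, whose cells also express Slc2a4, summed to 2812 and 1080.3 TPM. The list went both ways: Cfd (1071 and 39.3 TPM), Adipoq (368 and 83.3) and Cidec (299 and 39.0) were higher in replicate 1, Fabp4 (876 and 717) and Lpl (198 and 182) were nearly level, and Plin1 (0.190 and 19.3) was higher in replicate 2. Their part in the difference of Slc2a4 was not tested.

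Hexokinase phosphorylates glucose and traps it in the cell. Hk2, the insulin-regulated form of muscle (chromosome 6, 82725025 to 82774454, minus strand), was at 1.06 TPM from 140 counts in replicate 1 and at 20.2 TPM from 2425 counts in replicate 2. The libraries differed widely for this gene, and both values were far below those of the later steps. Hk1, the form of brain and most other tissues, had 2 and 1 counts. Hk2 held 98.1% and 99.95% of the pair. The share in replicate 1 rests on few reads: with the posterior mean TPM of the same quantification, which adds a small amount to every transcript, it was 41.8% in replicate 1 and 93.7% in replicate 2. In replicate 2 the short processed transcript Hk2-202 took 31.2% of the Hk2 TPM with 4.02% of its counts.

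Glucose phosphate isomerase and phosphofructokinase carry the hexose phosphates on. Gpi1, the isomerase, was at 402 and 429 TPM (415 ± 19.3, SD, n = 2). Pfkm, the muscle subunit of phosphofructokinase, the main control point of glycolysis (chromosome 15, 98092589 to 98132451, plus strand), was at 373 and 229 TPM. Pfkl, the liver subunit, had 1 and 0 counts. Pfkp, the platelet subunit, had 3 counts in replicate 1 and 1516 in replicate 2 (0.0600 and 39.4 TPM). Pfkm therefore held 99.98% of the phosphofructokinase TPM in replicate 1 and 85.3% in replicate 2 (95% Wilson intervals of its share of counts, 99.959% to 99.994% and 92.4% to 93.1%). Pfkp shares 748 exonic bases with Pitrm1 on the opposite strand, which had 1 count in replicate 1 and 3307 in replicate 2. Whether strand was used in counting is not given in the sources used here, so reads within the shared bases cannot be told apart. Of all 100-base stretches of Pfkp transcripts, 4.66% were shared with 1 other gene. Within Pfkp in replicate 2, protein-coding transcripts held 18.6 of the 39.4 TPM.

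Pfkm itself was read as a pair of transcripts with different starts. Pfkm-202 begins at 98092589 and Pfkm-201 at 98108466, further into the gene. They held 49.3% and 50.7% of Pfkm TPM in replicate 1, and 82.5% and 17.5% in replicate 2. The share of the upstream start was thus higher in replicate 2, while both forms were found in each library. The enzymes Pfkfb1 and Pfkfb3, which make and break down the phosphofructokinase activator fructose 2,6-bisphosphate, had 0 counts in both libraries. Pfkfb2, their heart-type relative, had 0 counts in replicate 1 and 2858 in replicate 2 (32.4 TPM).

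Aldolase was the most abundant step. Aldoa, the form of muscle and many other tissues (chromosome 7, 126795234 to 126800751, minus strand), was at 8377 TPM in replicate 1 and 9845 in replicate 2 (9111 ± 1038, SD, n = 2) and ranked 9 and 11 among all genes. Aldoc, the brain form, had 4 and 1674 counts (0.220 and 33.9 TPM). Even where it was detected, Aldoc held only 0.343% of the aldolase TPM, and the share of Aldoa was 99.66% in that library. The leading Aldoa transcript differed between libraries. Aldoa-201, which starts nearer the coding region, was at 4023 and 3385 TPM, and Aldoa-203, which starts further upstream at 126800447, was at 3043 and 4927.

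The middle steps are each served by 1 gene here. Tpi1, which interconverts the triose phosphates (chromosome 6, 124810586 to 124814296, minus strand), was at 1072 TPM in replicate 1 and 3879 in replicate 2, a 3.62-fold difference. Gapdh, which makes the first NADH of the pathway (chromosome 6, 125161715 to 125166467, minus strand), was at 3412 and 6070.0 TPM. Pgk1, the first ATP-yielding enzyme (chromosome X, 106187100 to 106203699, plus strand), was at 427 and 588 TPM. All these genes were lower in replicate 1, Tpi1 by far more than the others. Gapdh and Pgk1 are uncertain in level because of near-identical copies. Of the 100-base stretches of their transcripts, 20.9% of Gapdh were shared with 79 other genes and 51.7% of Pgk1 with 2. The genes that share with Gapdh had counts equal to 8.28% and 8.85% of its own. Those that share with Pgk1 had 3771 and 7238 counts, against 17982 and 31716 of Pgk1. In addition, the 483-base processed transcript Gapdh-208 took 41.6% and 48.3% of Gapdh TPM with 17.4% and 22.1% of its counts. Tpi1 shared 0 such stretches.

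**Figure D2:**
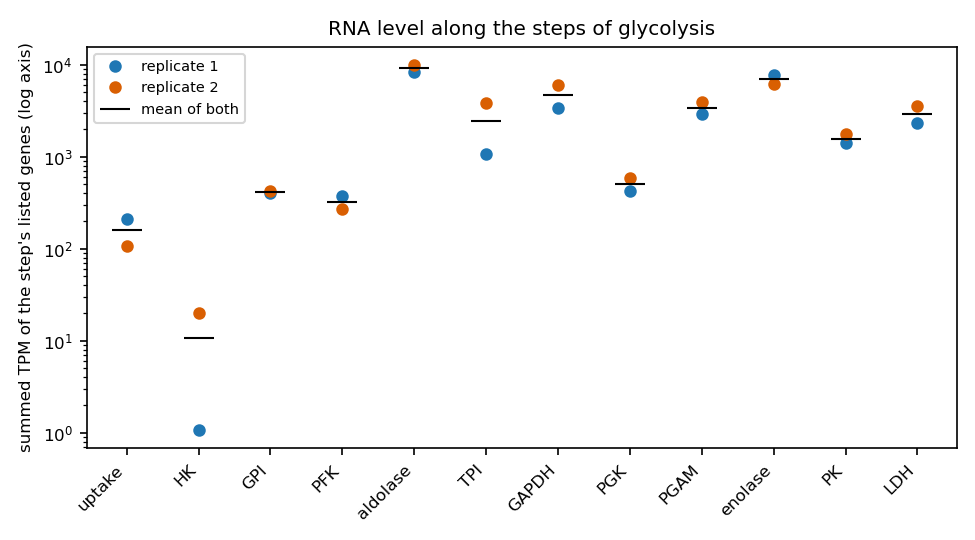
Summed TPM of the listed genes at each step of glycolysis on a log axis, with a point per library and a bar at their mean. Uptake, hexokinase (HK), isomerase (GPI) and phosphofructokinase (PFK) lie lowest, and aldolase and enolase lie highest, with phosphoglycerate kinase (PGK) as a low step among the later ones.

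Summed over the listed genes, the steps ran over almost 3 orders of magnitude, from hexokinase at 10.6 ± 13.5 TPM to aldolase at 9128 ± 1062 (SD, n = 2). After aldolase came enolase (6968 ± 1201), glyceraldehyde phosphate dehydrogenase (4741 ± 1879), phosphoglycerate mutase (3403 ± 709), lactate dehydrogenase (2937 ± 889), triose phosphate isomerase (2475 ± 1985) and pyruvate kinase (1575 ± 254). Below them lay phosphoglycerate kinase (508 ± 114), the isomerase Gpi1 (415 ± 19.3), phosphofructokinase (321 ± 74.1) and uptake (160.0 ± 73.9). The values of neighbours from glyceraldehyde phosphate dehydrogenase to pyruvate kinase overlapped between libraries, as did those of phosphoglycerate kinase and Gpi1, so their order is not resolved. Values of all the other neighbours did not overlap. No test was made, as each step has 2 values.

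Phosphoglycerate mutase showed a wide gap between the muscle form and its partner. Pgam2, the muscle form (chromosome 11, 5801640 to 5803733, minus strand), was at 2902 TPM in replicate 1 and 3839.9 in replicate 2 (3371 ± 663, SD, n = 2). Pgam1, the form of brain and most other tissues (chromosome 19, 41911923 to 41918660, plus strand), had 5 counts in replicate 1 and 3477 in replicate 2 (0.120 and 64.2 TPM). Pgam2 was 59.8-fold above Pgam1 in replicate 2 and held 98.4% of the pair there. Pgam1 shared 33.9% of its 100-base stretches with 2 other genes, which had 0 and 1265 counts, so its own level is uncertain; Pgam2 shared 0.

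The 250 bases before the RefSeq start of both mutase genes are printed as 1 example of a pair unequal in RNA. It was not the most unequal. Aldoa was 38079-fold and 291-fold above Aldoc in replicates 1 and 2, and Pgam2 was 24183-fold and 59.8-fold above Pgam1. Sequences are those of RefSeq on GRCm38.p6, on the strand of the gene, with capitals at matches to CAGCTG, the E-box that myogenic factors favour, and to the motif of the MEF2 factors. Pgam2 is at chr11:5803797-5804046 and Pgam1 at chr19:41911621-41911870.
Pgam2: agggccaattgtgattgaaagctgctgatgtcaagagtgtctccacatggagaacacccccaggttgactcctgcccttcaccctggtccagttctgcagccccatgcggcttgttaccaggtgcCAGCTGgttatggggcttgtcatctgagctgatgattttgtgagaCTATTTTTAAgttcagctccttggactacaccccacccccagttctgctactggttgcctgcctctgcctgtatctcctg
Pgam1: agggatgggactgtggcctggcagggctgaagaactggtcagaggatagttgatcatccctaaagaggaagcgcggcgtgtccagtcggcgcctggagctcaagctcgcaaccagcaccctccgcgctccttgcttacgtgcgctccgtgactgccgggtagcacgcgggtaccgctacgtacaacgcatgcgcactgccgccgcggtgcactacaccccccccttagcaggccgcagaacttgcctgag
Pgam2 held 1 match of each motif, the E-box 119 bases and the MEF2 motif 70 bases before the start, and Pgam1 held 0 of each. The GC content was 53.2% in Pgam2 and 64.0% in Pgam1.

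Such windows matched 32 of the 33 genes by symbol; Slc2a4 was not matched. CAGCTG, which reads the same on both strands, was in 8 of 32 (Gpi1, Gys1, Pfkfb1, Pgam2, Phka1, Pkm, Pygm and Ugp2) and in 14.7% of all genes, or 13.0% of all promoters. The MEF2 motif was in 2 of 32 (Pfkfb1 and Pgam2) and in 3.42% of all genes, or 2.92% of all promoters. ACGTG, searched on both strands, was in 13 of 32 (Aldoa, Hk2, Ldha, Pfkfb3, Pfkm, Pgam1, Pgk1, Pkm, Pygb, Pygl, Pygm, Slc2a1 and Ugp2) and in 18.5% of all genes, or 16.6% of all promoters. Of the printed pair, Pgam1 held it and Pgam2 did not. Among the 7 muscle forms with a window, CAGCTG was in 2 (Pgam2 and Pygm), the MEF2 motif in Pgam2 only, and ACGTG in 5. Among the 11 partners, CAGCTG and the MEF2 motif were in 0 and ACGTG in 4. The printed Pgam2 window was thus the only 1 of the 7 with the MEF2 motif. The motifs searched do not contain each other. A match describes these letters only.

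Among the 33 genes, enolase was the step with the largest share of a general form in both libraries. Eno3, the muscle form (chromosome 11, 70657202 to 70662513, plus strand), was at 6402 TPM in replicate 1 and 4876 in replicate 2 (5639 ± 1079, SD, n = 2). Eno1, the form of embryonic and most adult tissues, was at 1415 and 1242 TPM. Eno2, the neuronal form, had 2 counts in each library. Eno3 held 81.9% and 79.7% of the TPM (80.8% ± 1.55, SD, n = 2), and the 95% Wilson intervals of its share of counts were 80.9% to 81.2% and 78.1% to 78.4%. The share of this step differed by little between libraries and was below that of aldolase, mutase and phosphorylase in each. Eno1 shared 20.4% of its 100-base stretches with 2 other genes, whose counts equalled 1.41% and 1.57% of its own.

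Pyruvate kinase makes the second ATP of the lower pathway. Pkm as a whole was at 1395 TPM in replicate 1 and 1754 in replicate 2 (1575 ± 254, SD, n = 2). Its M1 transcript, Pkm-202, was at 1013 and 1538 TPM from 57642 and 112129 counts. Its M2 transcript, Pkm-201, was at 383 and 216 TPM from 21791 and 15764 counts. M1 was therefore the major form in both libraries, with 72.6% of Pkm in replicate 1 (95% Wilson interval of the counts, 72.3% to 72.9%) and 87.7% in replicate 2 (87.5% to 87.9%), or 80.1% ± 10.7 (SD, n = 2). The ratio of M1 to M2 was 2.65 and 7.11. Reads that do not tell the forms apart were divided by the quantification, so the Wilson intervals are too narrow. The posterior SD of that division was 322 counts in replicate 1 and 284 in replicate 2. The libraries differed by much more than counting error, with M1 higher and M2 lower in replicate 2. Both transcripts are 2432 bases long in the deposited tables, so length does not enter their ratio; GENCODE M21, from which the exons were read, gives Pkm-202 as 2041 bases, so its ends differ between annotations.

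The splicing factors known to act on these exons were present in both libraries with 1 exception. Ptbp1, which represses the M1 exon, was at 81.3 TPM in replicate 1 and 33.2 in replicate 2. Its relatives were lower, with Ptbp2 at 1.04 and 5.68 TPM and Ptbp3 at 13.2 and 1.76. Hnrnpa1, which also represses M1, was at 189 and 115 TPM, and Hnrnpa2b1 at 152 and 116. Ptbp1, Hnrnpa1 and Hnrnpa2b1 were thus each higher in replicate 1, the library with more M2. Srsf3, which favours the M2 exon, was instead lower there, at 143 against 292 TPM. Rbm4, which favours M1, had 0 counts in replicate 1 and 1514 in replicate 2 (42.6 TPM). Fibroblast markers, from a cell type that uses M2, summed to 6287 and 3921 TPM. The collagen genes Col1a1, Col1a2 and Col3a1 were higher in replicate 1, Dcn was nearly level (660.1 and 680.4 TPM), Pdgfra was at 15.7 and 12.2, and Lum was higher in replicate 2 (104 and 216). The part of the splicing factors or of fibroblasts in the M1 share was not tested.

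Lactate dehydrogenase closes the anaerobic route. Ldha, the form of fast muscle (chromosome 7, 46841475 to 46855627, plus strand), was at 2088 TPM in replicate 1 and 3405 in replicate 2 (2747 ± 931, SD, n = 2). Ldhb, the heart form (chromosome 6, 142490249 to 142507957, minus strand), was at 219.5 and 159.8 TPM (189.6 ± 42.2). Ldha held 90.5% and 95.5% of the pair (93.0% ± 3.56), with 95% Wilson intervals of its share of counts of 92.0% to 92.3% and 96.2% to 96.4%. The forms differed in opposite directions between libraries, and Ldha was 9.51-fold and 21.3-fold above Ldhb. Slc16a3, the lactate exporter of glycolytic muscle, was at 49.6 and 50.5 TPM, and the more general lactate transporter Slc16a1 at 3.08 and 21.3.

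**Figure D3:**
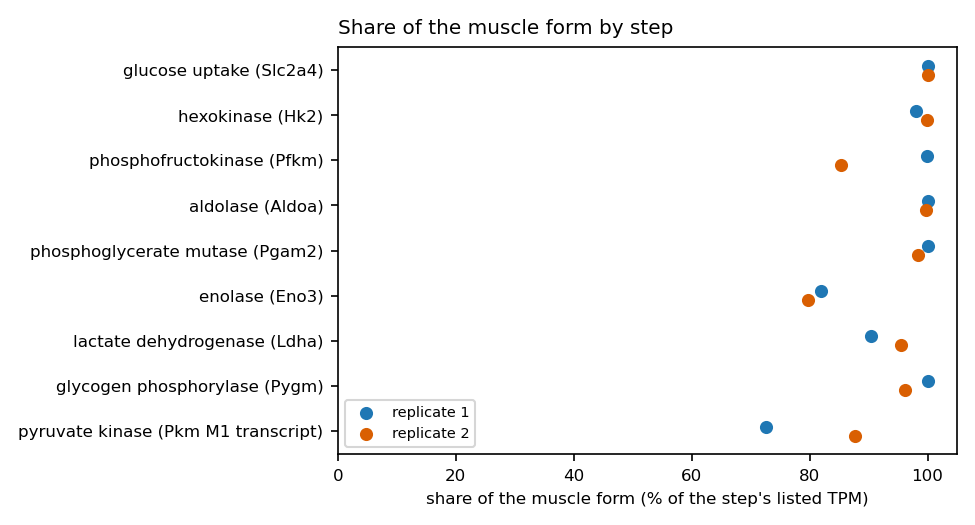
Share of the muscle form in the summed TPM of the listed genes of each of 8 steps, and of the M1 transcript in Pkm, with a point per library. All shares lie above 50% in both libraries; enolase is near 80% in both, and phosphofructokinase and Pkm differ most between libraries.

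The muscle form held more than 50% of the TPM at all 8 steps where its share was taken, in both libraries. Phosphorylase kinase was not among these 8. In replicate 2 its muscle subunits were lower than their relatives. Phka1 was at 15.8 against 28.7 TPM of Phka2, and Phkg1 at 23.2 against 81.6 of Phkg2. In replicate 1, Phkg1 was at 3.40 TPM and Phkg2 at 0 counts, while Phka1 and Phka2 had 2 and 4 counts. Of the 8 steps, aldolase, phosphoglycerate mutase and glycogen phosphorylase were above 96% in each library. Lactate dehydrogenase and enolase were those where a general or heart form was detected in both libraries. At 4 of the 8 (phosphofructokinase, aldolase, mutase and phosphorylase) a partner was detected in replicate 2 alone, where the share was lower for it. With protein-coding transcripts only, an alternative chosen after seeing the data, the count was again 8. With posterior mean TPM it was 7, as the share of Hk2 in replicate 1 was then 41.8%.

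Glycogen breakdown was led by Pygm, the muscle glycogen phosphorylase (chromosome 19, 6384399 to 6398459, plus strand), at 1407 TPM in replicate 1 and 1221 in replicate 2 (1314 ± 132, SD, n = 2). Pygl, the liver form, had 0 counts in both libraries. Pygb, the brain and fetal form, had 0 counts in replicate 1 and 5660 in replicate 2 (48.9 TPM). Pygb TPM was thus at least 493-fold higher in replicate 2, at a floor of 3 counts in replicate 1. At the same floor, Pygm TPM was at least 14193-fold above that of Pygb in replicate 1. The floor covers counting error only and not loss of molecules, so it does not bound these ratios for RNA in the tissue. In replicate 2 Pygm held 96.1% of the step. Of Pygm TPM, 31.9% and 33.4% were on Pygm-203, a 532-base transcript with a retained intron that took 6.81% and 7.27% of its counts; protein-coding transcripts gave 957 and 811 TPM.

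Phosphorylase kinase, which activates phosphorylase, was low and uneven among its subunits. Phka1, the muscle regulatory subunit, had 2 counts in replicate 1 and 2974 in replicate 2 (0.01 and 15.8 TPM). Phkg1, the muscle catalytic subunit, was at 3.40 TPM from 189 counts and 23.2 TPM from 1651 counts. Phkb, the shared regulatory subunit (chromosome 8, 85840959 to 86061376, plus strand), gave 82.8 and 69.9 TPM, which look alike. The transcripts behind them were different. In replicate 1 the processed transcript Phkb-207, which begins at 86035646 near the far end of the gene, held 99.3% of Phkb TPM, and in replicate 2 it had 0 counts. There the 630-base Phkb-206, at the near end, held 81.6%, and the long coding transcript Phkb-201 was at 0.570 TPM (73 counts) in replicate 1 and 12.9 TPM (2115 counts) in replicate 2. All subunits were thus lower in coding RNA in replicate 1. The relatives Phka2 and Phkg2, best known from liver and testis, had 4 and 0 counts in replicate 1 and 28.7 and 81.6 TPM in replicate 2.

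Of the enzymes that build glycogen, those that supply and prime it were the steadiest. Ugp2, which makes UDP-glucose, was at 370.1 and 575 TPM (472 ± 145, SD, n = 2). Gyg, glycogenin, the protein primer, was at 229 and 261 TPM (245 ± 22.6). Gys1, the muscle glycogen synthase (chromosome 7, 45434844 to 45456619, plus strand), was at 188 TPM in replicate 1 and 18.2 in replicate 2, a 10.3-fold difference from 16352 and 2037 counts. Gys1 shares 310 exonic bases with Ruvbl2 on the opposite strand, which had 4054 counts in replicate 1 and 1 in replicate 2; the part of such reads was not tested. Gbe1, the branching enzyme, had 2 and 103 counts (0.0300 and 3.45 TPM). Of the counts in replicate 2, 95.5% fell on Gbe1-202, a transcript with a retained intron, so protein-coding transcripts gave 0.0500 TPM and detection of the branching enzyme rests on that transcript.

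The difference between libraries was then set against that of all genes, as the log2 TPM ratio of replicate 1 over replicate 2 centred on the median gene. A ratio was taken where both libraries had at least 10 expected counts, which 4872 genes and 20 of the 33 passed. The other 13 have too few counts in at least 1 library for a ratio. Past 2-fold lay 1 gene toward replicate 1 (Gys1, +3.32), where 24.9% of all genes with a ratio lay, and 3 toward replicate 2 (Hk2, -4.30; Phkg1, -2.82; Tpi1, -1.91), where 26.0% lay. The remaining 16 differed by less than 2-fold on this scale. Centred on the spike-ins instead, which shifts all ratios by 0.93 toward replicate 2, 13 of the 20 lay past 2-fold, 1 toward replicate 1 and 12 toward replicate 2, where 60.6% of all genes lay past 2-fold in either direction. The median of the 20 was -0.26, with 12 of them higher in replicate 2, and their SD was 1.5 against 2.26 for all genes.

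**Figure D4:**
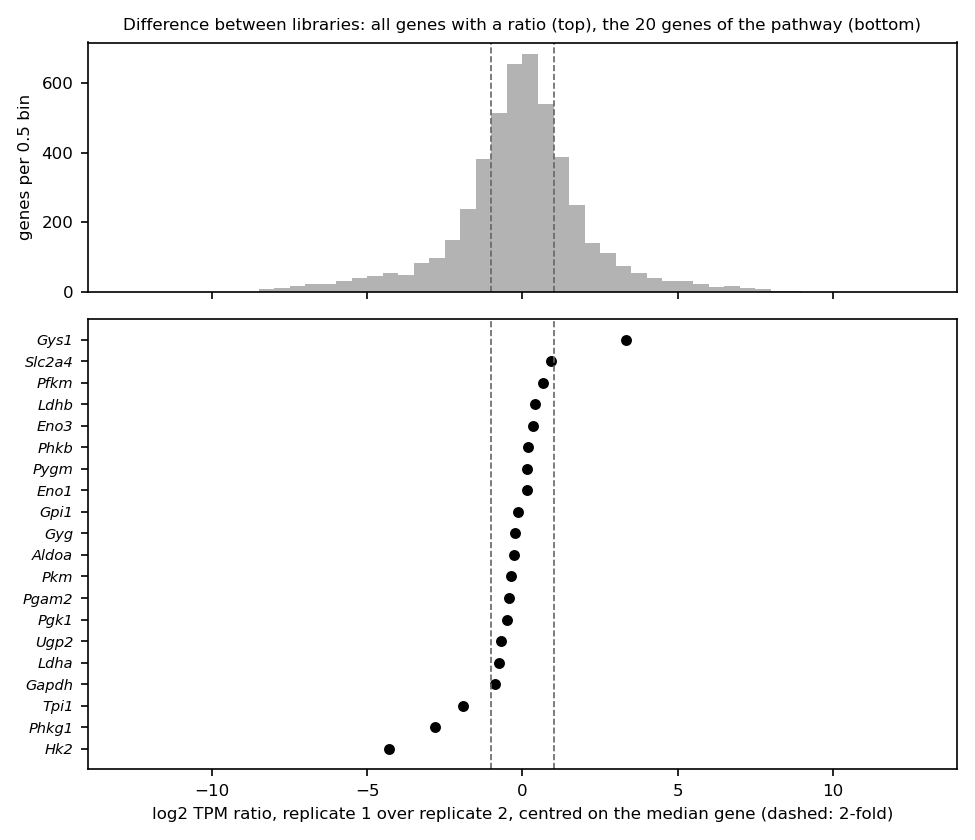
Histogram of the centred log2 TPM ratio of replicate 1 over replicate 2 for 4872 genes (top) and the same ratio for the 20 pathway genes that have one (bottom), with dashed lines at 2-fold. Of the 20, Gys1 lies past the line toward replicate 1, and Hk2, Phkg1 and Tpi1 toward replicate 2.

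Level goes along with this narrower spread. At 10000 counts or more in each library, 13 pathway genes had an SD of 0.648 and 314 genes an SD of 0.663. Of these, 1 pathway gene (Tpi1) and 12.7% of all genes lay past 2-fold. The next largest ratios toward replicate 2 after Tpi1 were those of Gapdh (-0.88), Ldha (-0.76) and Ugp2 (-0.69).

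Other genes around the pathway were looked at from a list of 48. Of these, 14 were detected in both libraries (18.2% of protein-coding genes were), 1 in replicate 1 only (8.22%), 6 in replicate 2 only (10.7%) and 27 in neither. Counts were 0 in both libraries for 22 of the 48. Pgm1, phosphoglucomutase, which links glycogen to glycolysis, was the highest at 596 and 517 TPM. Stbd1, which tethers glycogen to membranes, was at 186 and 347 TPM. Gaa, the lysosomal glycogen-degrading enzyme, was at 71.3 and 81.2 TPM. Pygm, Pgm1 and Gaa, which act in taking glycogen apart, were thus each found in both libraries, with Pygm the highest. Fbp2, the muscle fructose bisphosphatase that runs the phosphofructokinase step backwards, was at 55.8 and 164 TPM. The pyruvate dehydrogenase kinases, which hold pyruvate back from the mitochondrion, were all detected in both, led by Pdk2 at 154 and 231 TPM. The liver and other tissue forms Pklr, Gys2, G6pc and Fbp1 had 0 counts in both libraries. Bpgm, the red-cell mutase, had 2 and 3507 counts (74.2 TPM in replicate 2). G6pdx and Pgd, the dehydrogenases of the pentose phosphate route, were each seen in 1 library, G6pdx at 37.2 TPM in replicate 1 and Pgd at 35.3 in replicate 2. Of the 14 with a ratio, 4 (Slc16a1, Gsk3b, Slc37a4 and Fbp2) lay past 2-fold toward replicate 2 and 0 toward replicate 1, where 26.0% and 24.9% of all genes with a ratio lay.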

How the data were processed

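Both libraries came from 13 pg of total RNA with a SmartSeq protocol, per the labels. The deposited expected counts are the authors' estimated reads per gene or transcript, not normalized. The deposited TPM values were scaled by the authors over all rows of a table, 96 spike-ins included. The deposited percent values give each transcript's share of its gene. The tables have RSEM's columns, per the file headers. Reads were assigned on mm10 with GENCODE M4, per the deposited descriptions. The sources used here give neither aligner and version nor use of strand. There were 0 columns of other samples.

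Symbols (42462 of 43346 genes), positions and transcript types came from GENCODE M21 (GRCm38) by identifier, and promoters from RefSeq (GRCm38.p6). Numbered rows with 0 and 182 counts were left out. The 33 genes and all lists were chosen with earlier results of these data known; all 33 are named, and other genes where detected in both libraries or where a share changes with them. Some genes of the wider list are not reported here. With 1 group of 2 libraries no test was made: values are given per library with the SD, and shares of counts with 95% Wilson intervals. A count of 0 was taken to allow 3 counts. Reads carry no molecular identifiers, so intervals and floors cover counting error only. The ratio calculation was tested on simulated Poisson counts with known fold changes. These hold counting error only, without loss of molecules or uneven amplification. Alternatives were other detection limits, scalings, pseudocounts, posterior means, counts, wider paralogue lists, coding transcripts and each library alone. edgeR 4.0.16 in R 4.3.3 gave TMM factors on rounded counts for 1 alternative. The rest ran in Python 3.11.15 (pandas 2.3.3, matplotlib 3.10.9, scipy 1.17.1 and numpy 2.4.6).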

Additional observations from a re-analysis of the deposited data

How the results depend on the processing

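Of 27 alternatives for the summary results, 25 kept the value within the spread between libraries or the count within 1.5 times, and 2 moved it. Both concern the genes past 2-fold between libraries, 4 of 20 as reported. Centring on the spike-ins, which shifts all ratios by 0.93 on the log2 scale, gave 13 (1 toward replicate 1 and 12 toward replicate 2, median -1.19), where 60.6% of all genes were past 2-fold. With no filter and log2(TPM + 1), 10 of 29 genes were past 2-fold, 1 and 9 by direction, against 53.7% of all genes. TMM factors and no centring each gave 4 again, where 51.4% and 50.5% of all genes were past 2-fold. Detection in both libraries ranged from 18 genes at TPM of at least 10, where 7.30% of all genes were detected, to 27 at 1 count or more, where 14.9% were. With replicate 1 or replicate 2 left out, the share of gene TPM was 4.07% or 3.42%, the M1 share of Pkm 87.7% or 72.6%, and the steps led by the muscle form 8 and 8. With 2 libraries, a mean with 1 left out always lies within the SD, so leaving 1 out could not move any share, also at single steps. The Pkm transcripts have equal length and are both coding, so counts, deposited percents and coding transcripts had to give the same M1 share. Both kinds are among the alternatives that kept the value. With posterior mean TPM 7 of 8 steps were led by the muscle form in both libraries, hexokinase falling to 67.7% ± 36.8. Of 45 alternatives for the share at single steps 42 stayed within the spread, 3 moved and 0 reversed; the others that moved were glucose uptake at 99.9% with posterior means and 80.5% ± 27.6 with Slc2a3 included. No paired analysis was possible because both libraries belong to 1 group. For genes under 10 counts in a library, no ratio between libraries was taken, and their TPM in that library rests on few reads. Absence from 13 pg of RNA was not tested against loss of molecules.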
